A study of Mus musculus with 10 samples.

Results

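Fully grown mouse oocytes wait at the germinal vesicle stage of meiosis, and cyclic AMP made inside the oocyte keeps them there. The 10 genes described here encode that control: the receptors Gpr3 and Gpr12, the G protein subunit gene Gnas, the adenylyl cyclases Adcy3 and Adcy9, the phosphodiesterase Pde3a, and the protein kinase A (PKA) subunits Prkar1a, Prkar2b, Prkaca and Prkacb. They were chosen by gene symbol, out of 18193 genes named on the array, and each is represented by the brightest of its probe sets over all samples. All 10 passed the filter for tested genes, a log2 intensity above 5 in at least 4 arrays, as did 10590 genes in all. Messenger RNA was measured in 6 samples of RNAi-transgenic oocytes, whose transgene makes RNA interference against basonuclin (Bnc1) only in oocytes, and in 4 samples of non-transgenic oocytes. Per the labels each sample held RNA of 50 germinal vesicle oocytes of a single mouse, hybridised to an array of its own. The strain, the age, the litters and the promoter that drives the transgene are not given in the sources used here. RNAi-transgenic samples carry the replicate numbers 4, 5, 6, 11, 12 and 13 and non-transgenic samples 1, 2, 7 and 8, and values are listed in that order.

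In the mouse oocyte the receptor GPR3 is active without an added ligand and works through the stimulatory G protein encoded by Gnas. The G protein activates adenylyl cyclase, chiefly the ADCY3 enzyme in rodent oocytes, and the cyclic AMP formed releases the catalytic subunits of PKA from its regulatory subunits. Active PKA keeps the cell cycle kinase CDK1 off by acting on WEE2 and CDC25B. PDE3A breaks cyclic AMP down, and cyclic GMP that arrives from the surrounding cumulus cells through gap junctions holds PDE3A in check until luteinizing hormone lowers it.

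The libraries matched their labels and were those of oocytes. Bnc1 lay at log2 3.68 to 4.26 in RNAi-transgenic samples, below the filter in all of them, against 11.40 to 11.76 in non-transgenic samples. That is a fall of at least 95.1-fold. Bnc1 passed the filter only through the non-transgenic samples, so a difference was built in and its p-value is not given. Its paralog Bnc2 was at 12.56 in both groups (limma adjusted p = 0.987). All 15 oocyte markers passed the filter, and of these 1 rose and 2 fell. Their summed intensity was 218400 to 261300 in RNAi-transgenic and 225200 to 240100 in non-transgenic samples. Of 17 granulosa and cumulus markers on the array, 8 passed, of which 2 rose and 6 were not called, and 8 others, Amh, Amhr2, Star, Inhba, Nr5a1, Hsd3b1, Has2 and Npr2, were below the filter level in every sample. Their summed intensity was 1730 to 2814 in RNAi-transgenic and 1799 to 2006 in non-transgenic samples. Of 11 stroma, theca and vessel markers on the array, 4 passed the filter, of which 3 rose and 1 fell. The summed intensity of all 11 was 430.3 to 537.1 against 291.3 to 401.3, without overlap between the groups. Of 9 markers of blood or immune cells, 3 passed the filter, with 1 rise and 1 fall (summed intensity of all 9, 2210 to 3324 against 2886 to 3233). Over all tested genes 37.2% were called. The part of granulosa, stroma or blood cells in the results below was not tested.

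Adcy9, Gnas and Prkacb fell, Pde3a rose, and Gpr12 was called higher. Gpr3, Adcy3, Prkar1a, Prkar2b and Prkaca did not pass the test, which does not show that they were level. In all, 5 of 10 genes were called by limma at an adjusted p below 0.05, where 37.2% of all tested genes were called. For a list of 10 genes that count is near the background. By direction, 2 of 10 were higher and 3 of 10 lower, beside 18.9% and 18.3% of all tested genes. Gpr12, counted among the higher, passed the filter only through the RNAi-transgenic samples, so a difference was favoured and its call is no test of a rise. The median difference over the 10 genes was 0.06 on the log2 scale, beside -0.03 over all tested genes. The median absolute difference was 0.29, beside 0.24. Groups did not overlap for 3 of the 10 genes on their brightest probe sets, Adcy9, Pde3a and Prkacb, where 28.0% of all tested genes had no overlap. In pooled oocytes, less RNA in every oocyte and a loss in a part of them cannot be told apart. Separate mice make the replicates, and p-values cover only the spread between these samples.

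**Figure D1:**
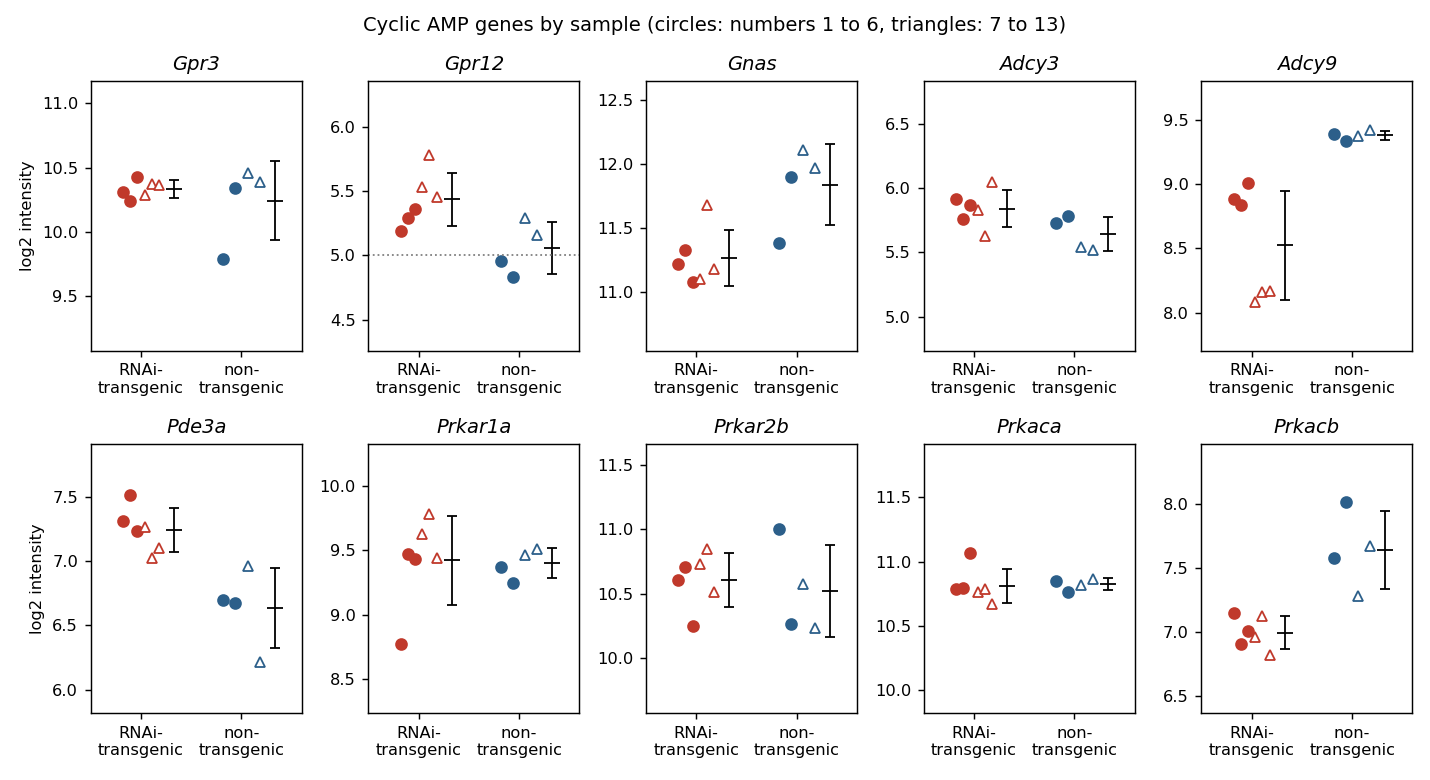
The log2 intensity of the brightest probe set of each gene in every sample, RNAi-transgenic in red on the left and non-transgenic in blue on the right of each panel, with bars for the mean and SD (n = 6 and 4). Each panel spans the same range on the log2 scale, circles are samples numbered 1 to 6 and triangles 7 to 13, and the dotted line in the Gpr12 panel is the filter level of 5. Adcy9, Pde3a and Prkacb show no overlap between the groups, and the Adcy9 values of RNAi-transgenic samples form separate clusters by replicate number.

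Gpr3, the receptor that keeps mouse oocytes in arrest, was abundant and did not pass the test. It was at log2 10.31, 10.24, 10.42, 10.28, 10.37 and 10.37 in RNAi-transgenic samples, against 9.79, 10.34, 10.46 and 10.39 in non-transgenic samples. The groups overlapped, and non-transgenic replicate 1 was the lowest sample. The difference was 0.09 (95% interval -0.18 to 0.36, limma adjusted p = 0.600), and without non-transgenic replicate 1 it was -0.06 (adjusted p = 0.521).

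Gpr12, the related receptor known for the same role in rat oocytes, was dim. Its brightest probe set was at log2 5.19, 5.29, 5.36, 5.53, 5.78 and 5.45 in RNAi-transgenic samples, all brighter than log2 5, against 4.96, 4.83, 5.29 and 5.16 in non-transgenic samples, of which 2 exceeded it. The RNAi-transgenic values were mostly higher, with overlap at 5.19 and 5.29. The mean of Gpr12 was higher by 0.38 in RNAi-transgenic samples (SE 0.13), at least 1.25-fold with the dim samples set to the filter level. It passed the filter of 4 arrays only through the RNAi-transgenic samples, as 2 non-transgenic samples above log2 5 would not suffice. A difference was thus favoured, so its p-values are not given and its call is no test of a rise. The call also rests on a narrow margin. The call was lost without RNAi-transgenic replicate 11, 12 or 13 or without non-transgenic replicate 1 or 2. It was lost too after quantile normalization and with no filter.

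Gnas encodes the alpha subunit of the stimulatory G protein, and its locus also makes further imprinted transcripts. Only the brightest of its 5 probe sets passed the filter, and its suffix marks probes that match several transcripts, so the products of the locus are not told apart. It was at log2 11.22, 11.33, 11.08, 11.11, 11.68 and 11.18 in RNAi-transgenic samples, against 11.38, 11.90, 12.11 and 11.96 in non-transgenic samples. RNAi-transgenic replicate 12 and non-transgenic replicate 1 overlapped, and the other samples were separate. Gnas fell by 0.57 on the log2 scale (SE 0.15), 1.49-fold lower (limma adjusted p = 0.0119, exact permutation p = 0.0143).

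The adenylyl cyclases differed in what could be called. Adcy3, the cyclase known to act in rodent oocyte arrest, was at a median of log2 5.85 (5.63 to 6.05) in RNAi-transgenic samples, against 5.73, 5.78, 5.55 and 5.52 in non-transgenic samples. Its groups overlapped, and the difference of 0.20 did not pass (95% interval -0.01 to 0.41, limma adjusted p = 0.132).

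Adcy9, a cyclase of wide expression that responds weakly to forskolin, fell. Its brightest probe set was at log2 8.88, 8.83, 9.01, 8.09, 8.16 and 8.17 in RNAi-transgenic samples, against 9.39, 9.34, 9.38 and 9.42 in non-transgenic samples. Every RNAi-transgenic sample was lower than every non-transgenic sample. The difference was -0.86 (SE 0.20), or 1.81-fold lower (limma adjusted p = 0.00564, exact permutation p = 0.0143). On the linear scale the mean intensity was 381.5 ± 110.8 in RNAi-transgenic (SD, n = 6) and 667.3 ± 15.5 in non-transgenic samples (SD, n = 4).

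Of the other probe sets of Adcy9 that passed the filter, 1 fell as well and 1 did not pass the test. The second brightest was at 7.62, 7.21, 7.25, 7.27, 7.59 and 7.43 in RNAi-transgenic samples, against 7.89, 8.29, 8.04 and 8.27 in non-transgenic samples, again without overlap. It fell by 0.73 (SE 0.12, limma adjusted p = 0.000891, exact permutation p = 0.00476, the smallest that the design allows). The third was at 6.82, 6.25, 7.16, 5.97, 5.77 and 5.83 in RNAi-transgenic samples, against 6.39, 7.11, 7.24 and 6.94 in non-transgenic samples, and its difference of -0.62 did not pass (95% interval -1.25 to 0.01, limma adjusted p = 0.119).

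The fall of Adcy9 on its brightest probe set was not even among RNAi-transgenic mice. Samples numbered 4 to 6 were at 8.83 to 9.01 and samples numbered 11 to 13 at 8.09 to 8.17, with nothing between. On the third probe set these samples were at 6.25 to 7.16 and at 5.77 to 5.97, and on the second at 7.21 to 7.62 and at 7.27 to 7.59. Thus the clusters showed on 2 of the 3 probe sets, and these 2 were designed on the same sequence record. Within samples numbered 1 to 6 the difference was -0.46 (limma adjusted p = 0.0539) and within those numbered 7 to 13 it was -1.26 (adjusted p = 0.00130). The difference between the ranges was -0.81 (SE 0.15), with an unadjusted p of 0.000403 and an adjusted p of 0.418 in limma's interaction term. No gene passed that test at an adjusted p below 0.05, and 685 of 10590 (6.47%) were below 0.05 without adjustment. No label calls the number ranges batches.

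Pde3a, the phosphodiesterase that ends the arrest by removing cyclic AMP, rose on its brightest probe set. No other probe set of Pde3a passed the filter, and the dimmer ones did not rise. The brightest was at log2 7.31, 7.52, 7.23, 7.27, 7.03 and 7.11 in RNAi-transgenic samples, against 6.69, 6.67, 6.96 and 6.21 in non-transgenic samples. Every RNAi-transgenic sample was higher than every non-transgenic sample, by the least between RNAi-transgenic replicate 12 and non-transgenic replicate 7. The rise was 0.61 (SE 0.15), or 1.52-fold (limma adjusted p = 0.00709, exact permutation p = 0.00476). Mean intensity was 152.4 ± 18.4 in RNAi-transgenic (SD, n = 6) and 101.1 ± 20.8 in non-transgenic samples (SD, n = 4).

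**Figure D2:**
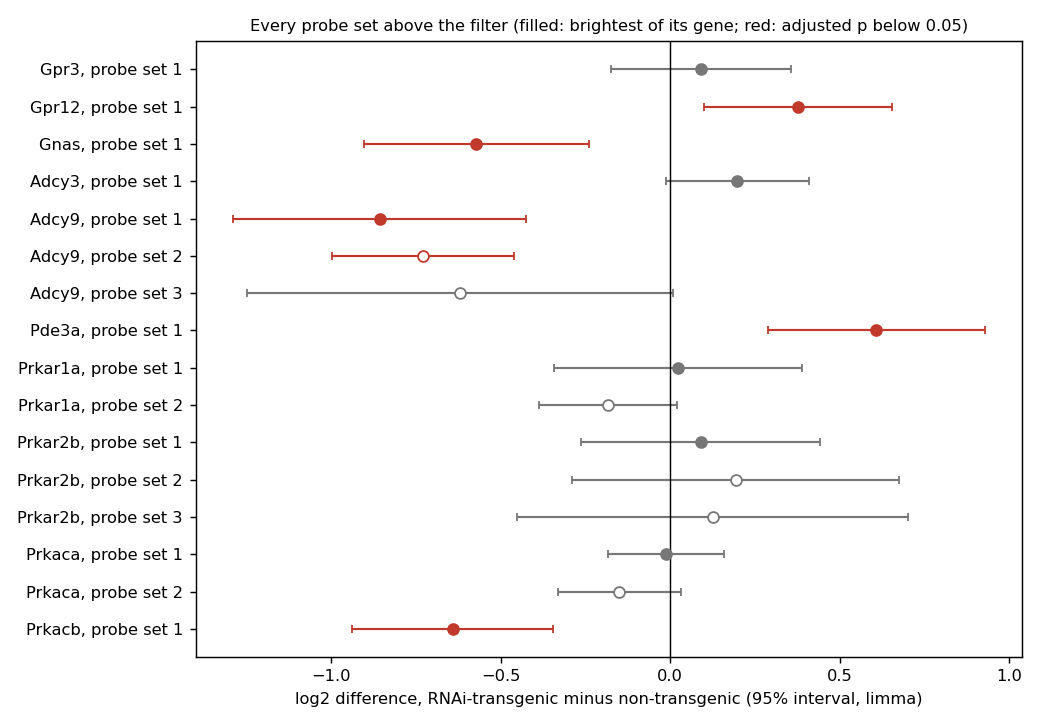
The log2 difference, RNAi-transgenic minus non-transgenic, of all 16 probe sets of these genes that passed the filter, with 95% intervals from limma, numbered from the brightest down within a gene. The 3 Adcy9 probe sets all lie below 0, and those of Prkar1a, Prkar2b and Prkaca span 0.

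The catalytic subunits of PKA are encoded by Prkaca and Prkacb, of which only Prkacb was called. Prkacb was at log2 7.15, 6.90, 7.01, 6.96, 7.13 and 6.82 in RNAi-transgenic samples, against 7.58, 8.02, 7.28 and 7.67 in non-transgenic samples. No sample of the groups overlapped. Prkacb fell by 0.64 (SE 0.13), 1.56-fold lower (limma adjusted p = 0.00342, exact permutation p = 0.00476). The mean intensity was 127.8 ± 11.3 in RNAi-transgenic (SD, n = 6) and 202.1 ± 42.9 in non-transgenic samples (SD, n = 4).

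Prkaca was at log2 10.79, 10.79, 11.07, 10.76, 10.79 and 10.67 in RNAi-transgenic samples, against 10.85, 10.76, 10.82 and 10.87 in non-transgenic samples. Its groups overlapped throughout, with RNAi-transgenic replicate 6 the highest sample. The difference was -0.01 (95% interval -0.19 to 0.16, limma adjusted p = 0.915), an interval that leaves out the size of the Prkacb fall. That probe set carries the suffix for probes that may also bind other transcripts. The dimmer Prkaca probe set was at a median of 7.24 (7.11 to 7.36) in RNAi-transgenic and at 7.35, 7.35, 7.51 and 7.34 in non-transgenic samples. Its difference of -0.15 had the sign of the Prkacb fall and did not pass in limma (95% interval -0.33 to 0.03, adjusted p = 0.187). Its exact permutation p, which is not adjusted over genes, was 0.0286.

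The regulatory subunits Prkar1a, of type I PKA, and Prkar2b, of type II, hold the catalytic subunits inactive until cyclic AMP binds. Prkar1a was at log2 8.77, 9.48, 9.43, 9.62, 9.79 and 9.44 in RNAi-transgenic samples, against 9.37, 9.25, 9.47 and 9.51 in non-transgenic samples. The groups overlapped, with RNAi-transgenic replicate 4 far below the rest. The difference was 0.02 (95% interval -0.34 to 0.39, limma adjusted p = 0.933). A second probe set of Prkar1a pointed the other way, at -0.18, and did not pass either (limma adjusted p = 0.153).

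Prkar2b was at log2 10.60, 10.71, 10.25, 10.73, 10.85 and 10.52 in RNAi-transgenic samples, against 11.00, 10.26, 10.58 and 10.23 in non-transgenic samples. Its groups overlapped, and the non-transgenic samples spanned all of the RNAi-transgenic values. The difference was 0.09 (95% interval -0.26 to 0.44, limma adjusted p = 0.698). The other 2 probe sets that passed the filter gave 0.19 and 0.12 (limma adjusted p = 0.538 and 0.750).

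**Figure D3:**
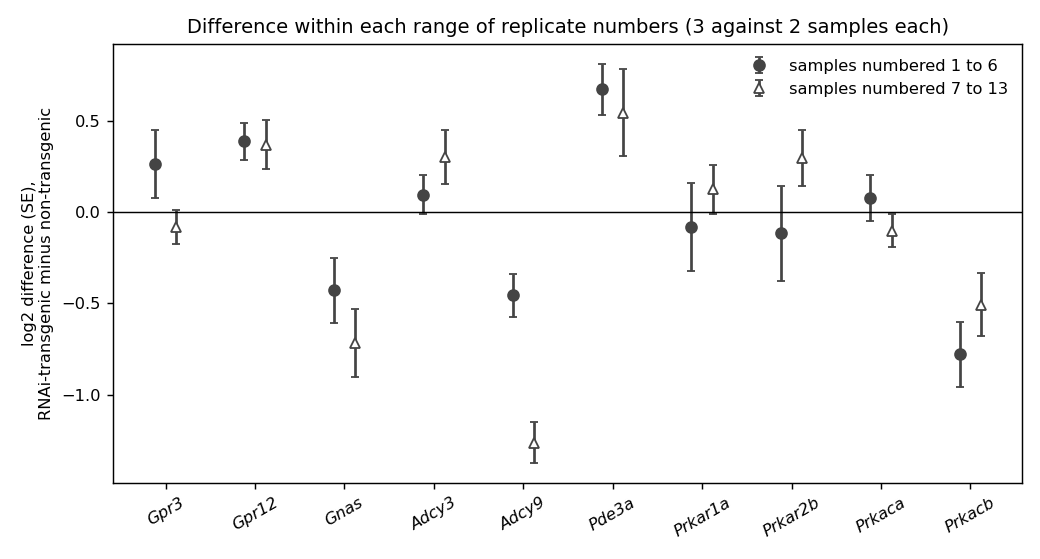
The log2 difference, RNAi-transgenic minus non-transgenic, of each gene within samples numbered 1 to 6 (circles) and 7 to 13 (triangles), with the SE, from 3 RNAi-transgenic and 2 non-transgenic samples in each range. Gpr12, Gnas, Adcy9, Pde3a and Prkacb keep their sign in both ranges, which is no separate support, as they were called on these same samples. Adcy9 shows the widest gap between the ranges.

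The direction of the 5 called genes was the same within each range of replicate numbers, which is no separate support. They were called on these same samples. For Adcy9, Pde3a and Prkacb, whose groups do not overlap, the sign within a range was fixed in advance. With 3 against 2 samples, fewer of the 5 passed. Pde3a (0.67, limma adjusted p = 0.0295) and Prkacb (-0.78, 0.0388) passed within samples numbered 1 to 6, where 18.1% of all tested genes were called. Adcy9 (-1.26, 0.00130) and Gnas (-0.72, 0.0433) passed within those numbered 7 to 13, where 21.4% were called. Gnas missed within samples numbered 1 to 6 (-0.43, limma adjusted p = 0.159). Pde3a (0.54, 0.165) and Prkacb (-0.51, 0.0948) missed within those numbered 7 to 13, and Gpr12 missed in both (0.39 and 0.37). Signal at the 5' end of the Gapdh control minus that at its 3' end was -4.12 to -3.63 on the log2 scale in RNAi-transgenic and -4.34 to -3.72 in non-transgenic samples, which overlap (exact permutation p = 0.114). For Actb it was -5.13 to -3.40 and -4.01 to -3.44 (exact permutation p = 0.714), with RNAi-transgenic replicate 6 the lowest. The part of RNA length in these results was not tested.

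Cyclic AMP also acts on transcription, through factors of the CREB family that bind the cyclic AMP response element, TGACGTCA, or its shorter core, TGACG, which reads CGTCA on the other strand. Promoter windows from RefSeq (GRCm38.p6), 250 bases before to 50 after a transcript start, were found for 9 of the 10 genes, all but Pde3a, in 23 windows. The core was in 10 of these windows, from 6 genes (20.8% of all 32851 windows hold it), counting both strands and including cores within the full element. These counts cannot be read as an excess. Overlapping windows of Gnas, and of Prkar1a, hold the same sites and were counted apart. The core holds a CG, and windows with it had 43.3% (Prkar1a) to 81.7% (Gnas) G and C, mostly above the median of 52.7% over all windows. Windows of like G and C content were not compared. The full element was in 2 overlapping windows of Prkar1a and in no window of the other members (1.79% of all windows hold it). The 220 bases before a start are printed for these 6 genes, 5′ to 3′ along the gene, so that the called Adcy9, Gnas and Prkacb can be read beside Gpr3, Prkaca and Prkar1a, which were not called. Capitals mark the motif. Gnas, Prkacb, Prkaca and Prkar1a have several starts, with a core in 3 of 4 windows of Gnas, 1 of 3 of Prkacb, 1 of 2 of Prkaca and 3 of 6 of Prkar1a. The window shown holds a match, and for Gnas and Prkar1a it is the most downstream of those that do. These arrays do not tell which start the oocyte uses.
Adcy9 (chr16:4420499-4420718, - strand): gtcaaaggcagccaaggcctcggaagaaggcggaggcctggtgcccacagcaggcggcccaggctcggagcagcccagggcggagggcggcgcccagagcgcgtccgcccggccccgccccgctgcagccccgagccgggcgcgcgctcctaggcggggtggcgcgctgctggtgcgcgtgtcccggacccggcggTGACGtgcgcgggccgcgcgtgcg
Gnas (chr2:174329786-174330005, + strand): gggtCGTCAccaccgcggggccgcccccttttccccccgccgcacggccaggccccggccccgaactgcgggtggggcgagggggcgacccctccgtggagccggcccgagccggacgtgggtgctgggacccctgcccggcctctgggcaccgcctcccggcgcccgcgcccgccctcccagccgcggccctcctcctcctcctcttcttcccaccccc
Prkacb (chr3:146812947-146813166, - strand): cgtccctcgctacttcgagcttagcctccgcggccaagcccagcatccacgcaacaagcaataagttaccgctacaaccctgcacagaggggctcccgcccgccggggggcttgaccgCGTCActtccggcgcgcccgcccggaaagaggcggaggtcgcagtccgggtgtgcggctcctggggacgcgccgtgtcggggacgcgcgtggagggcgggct
Gpr3 (chr4:133212537-133212756, - strand): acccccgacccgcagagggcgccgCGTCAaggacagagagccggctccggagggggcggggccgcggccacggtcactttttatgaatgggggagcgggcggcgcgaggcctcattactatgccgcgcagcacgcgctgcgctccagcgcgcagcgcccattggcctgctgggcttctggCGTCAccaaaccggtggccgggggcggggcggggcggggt
Prkaca (chr8:83972758-83972977, + strand): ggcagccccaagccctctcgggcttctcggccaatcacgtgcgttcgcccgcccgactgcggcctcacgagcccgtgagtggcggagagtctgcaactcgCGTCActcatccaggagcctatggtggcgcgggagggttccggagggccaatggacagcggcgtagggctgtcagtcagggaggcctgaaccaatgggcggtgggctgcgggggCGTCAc
Prkar1a (chr11:109650729-109650948, + strand): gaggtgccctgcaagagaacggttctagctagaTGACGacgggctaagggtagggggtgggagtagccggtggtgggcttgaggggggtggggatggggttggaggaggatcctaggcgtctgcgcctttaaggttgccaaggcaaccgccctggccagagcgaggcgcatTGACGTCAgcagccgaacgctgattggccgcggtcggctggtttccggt

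Counted from the start, with bases before it negative, the element begins at -49 in Prkar1a, where a core also lies at -187. Cores begin at -24 in Adcy9, -102 in Prkacb and -216 in Gnas, at -196 and -40 in Gpr3, and at -120 and -6 in Prkaca. Matches were thus present in called and uncalled genes alike, and in windows of Gpr12, Adcy3 and Prkar2b these letters were not found. A match describes the letters and is not a site of binding.

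The other genes of the pathway were followed in 9 lists, which hold 146 genes, 135 of them on probe sets with a single gene and 86 tested. Of these 86, 21 rose and 16 fell, 43.0% called against 37.2% of all tested genes, with a median difference of -0.01. Receptor desensitisation stood at the head of the pathway. Of 3 tested genes of Gs-coupled receptors and their desensitisation, 1 rose and 1 fell (median -0.27). Arrb2, which encodes a beta-arrestin that uncouples receptors, was at log2 6.87 ± 0.20 in RNAi-transgenic and 7.69 ± 0.20 in non-transgenic samples (SD, n = 6 and 4), a fall of 0.83 (limma adjusted p = 0.000462). The receptor kinase gene Grk5 rose by 0.45 (limma adjusted p = 0.0257), a call lost without non-transgenic replicate 1 or 8. The prostaglandin receptor gene Ptger4, the brightest, was at 9.23 and 9.50 (adjusted p = 0.290).

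Among 23 tested G protein subunits and regulators, 6 rose and 3 fell (median 0.07). That is 39.1% called, near the 37.2% of all tested genes. Gnai1, an alpha subunit of the G proteins that inhibit adenylyl cyclase, was at log2 10.16 ± 0.15 in RNAi-transgenic and 11.21 ± 0.10 in non-transgenic samples (SD, n = 6 and 4), 2.08-fold lower (limma adjusted p = 5.53e-06). The other inhibitory subunits Gnai2 and Gnai3 were at -0.18 and 0.14 and did not pass (limma adjusted p = 0.195 and 0.284). Rgs3 and Rgs17, which speed the turn-off of G proteins, fell by 1.02 and 0.64 (limma adjusted p = 4.58e-05 and 0.00166). Rgs2, another such regulator and the brightest of the list at log2 15.09 ± 0.05 in RNAi-transgenic and 14.92 ± 0.09 in non-transgenic samples, rose by 0.17 (adjusted p = 0.0128), and its call was lost with the mean of its probe sets (0.0874) and in eBayes without a trend (0.0627). Gna11, whose product activates phospholipase C, rose by 0.82 and the gamma subunit gene Gng3 by 0.63 (limma adjusted p = 8.43e-05 and 0.0134).

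**Figure D4:**
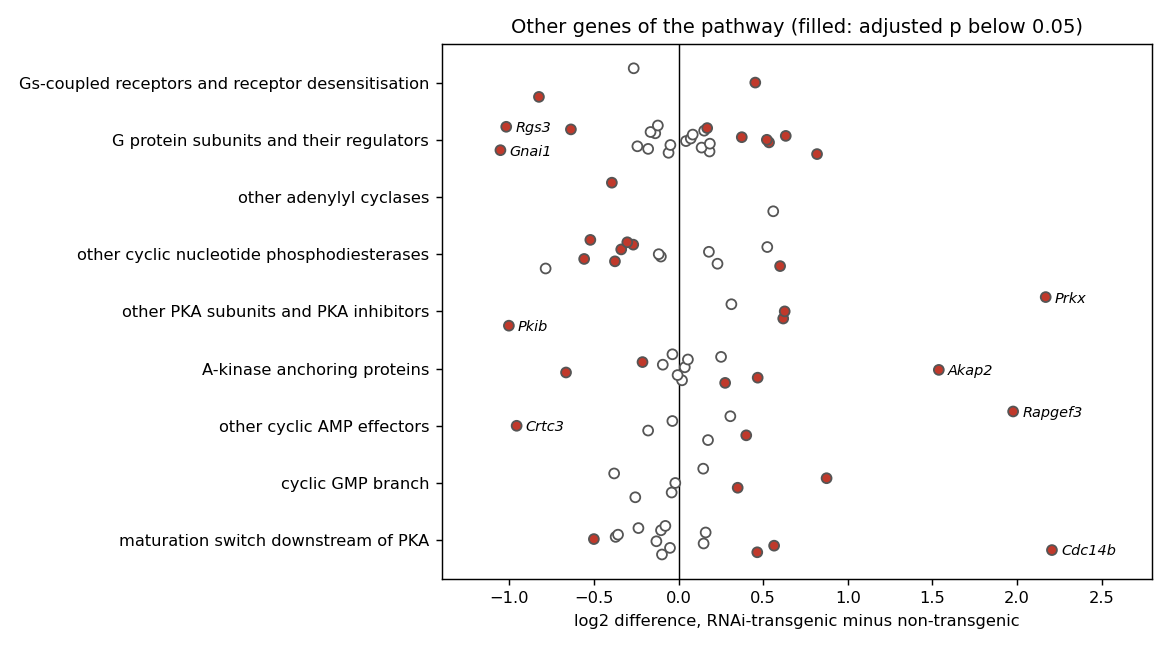
The log2 difference, RNAi-transgenic minus non-transgenic, of the 86 tested genes of the 9 lists, a point per gene, filled where the limma adjusted p is below 0.05. Prkx, Rapgef3, Akap2 and Cdc14b lie farthest to the right, and Gnai1, Rgs3, Pkib and Crtc3 farthest to the left among filled points.

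Of the adenylyl cyclases beyond Adcy3 and Adcy9, 2 of 8 were tested. Adcy5, a cyclase that Gi proteins inhibit, fell by 0.39 (limma adjusted p = 0.0130), lost with the mean of its probe sets (0.0674), and Adcy2 was at 0.56 (adjusted p = 0.117). Among 13 tested phosphodiesterase genes besides Pde3a, 1 rose and 6 fell (median -0.27), where 18.9% rose and 18.3% fell over all tested genes. The list was not tested as a set, and its count includes Pde6d and Pde12, described below. Pde3b, the paralog of Pde3a, moved the other way. It was at log2 9.64 ± 0.20 in RNAi-transgenic and 10.20 ± 0.12 in non-transgenic samples (SD, n = 6 and 4), without overlap, and fell by 0.56 (limma adjusted p = 0.00278).

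The other phosphodiesterase falls were smaller or less firm. The cyclic AMP enzymes Pde8b and Pde8a fell by 0.30 and 0.27 (limma adjusted p = 0.0248 and 0.0323). Whether the calls of Pde8b and Pde8a hold under other settings is not shown here. Pde9a, which acts on cyclic GMP, fell by 0.52, Pde2a by 0.38 and Pde6d by 0.34 (adjusted p = 0.0237, 0.0245 and 0.0310). The calls of Pde9a, Pde2a and Pde6d were lost after median centring (limma adjusted p from 0.0576 to 0.0894). Without non-transgenic replicate 7 each was lost too, as was Pde2a without non-transgenic replicate 2 or 8 and Pde6d without non-transgenic replicate 2 or RNAi-transgenic replicate 11. Pde6d, the brightest of the list, encodes a protein that carries prenylated proteins rather than an enzyme. The gene that rose, Pde12 (0.60, adjusted p = 0.00205), encodes an enzyme of RNA ends and not of cyclic nucleotides.

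Of the other PKA genes 3 rose and 1 fell among 5 tested (median 0.62). That is 80.0% called, beside 37.2% of all tested genes, in a small list that was not tested as a set. Prkx, which encodes a kinase related to the PKA catalytic subunits, was at log2 8.75 ± 0.21 in RNAi-transgenic and 6.58 ± 0.60 in non-transgenic samples (SD, n = 6 and 4), 4.50-fold higher (limma adjusted p = 3.20e-05). Prkar1b, a further type I regulatory subunit, rose by 0.63 and the PKA inhibitor gene Pkig by 0.62 (limma adjusted p = 0.0112 and 0.00710). Another PKA inhibitor gene, Pkib, fell by 1.00 (limma adjusted p = 0.00753), with RNAi-transgenic replicate 13 just below the filter level at 4.98. Prkar2a, a type II regulatory subunit, was at 0.31 (adjusted p = 0.0579).

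Of 12 tested A-kinase anchoring proteins, which hold PKA at its sites of action, 3 rose and 2 fell (median 0.03). That is 41.7% called, near the 37.2% of all tested genes. Akap2 rose by 1.54, 2.90-fold (limma adjusted p = 0.000165). Akap11 rose by 0.47 and Akap13 fell by 0.67 (limma adjusted p = 0.0198 and 0.0210), the call of Akap13 being lost with the mean of its probe sets (0.0725). Akap1, which anchors PKA at mitochondria, rose by 0.27 (limma adjusted p = 0.0240), and the mean of its probe sets gave 0.03 (adjusted p = 0.874). Akap11 lost its call without non-transgenic replicate 1 or 2, Akap1 without non-transgenic replicate 1, and Akap8l (-0.21, adjusted p = 0.0482) when any of 9 samples was left out, all but RNAi-transgenic replicate 6. Akap12, the brightest, was at log2 11.37 in both groups (adjusted p = 0.971).

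Other effectors of cyclic AMP gave 2 higher and 1 lower among 7 tested (median 0.17). That is 42.9% called, near the 37.2% of all tested genes. Rapgef3, which encodes the exchange factor EPAC1 that cyclic AMP activates without PKA, was at log2 10.24 ± 0.30 in RNAi-transgenic and 8.26 ± 0.46 in non-transgenic samples (SD, n = 6 and 4), 3.94-fold higher (limma adjusted p = 3.47e-05). Crtc3, a coactivator of CREB, fell by 0.96 (limma adjusted p = 1.11e-05). Creb1 itself rose by 0.40 (limma adjusted p = 0.0394), a call lost after quantile normalization (0.114), with the mean of its probe sets (0.449) and without RNAi-transgenic replicate 4 or 6 or non-transgenic replicate 1, 7 or 8. Crebbp, the brightest, was at -0.18 (adjusted p = 0.189).

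In the cyclic GMP branch 2 rose and none fell in limma among 7 tested (median -0.02). That is 28.6% called, beside 37.2% of all tested genes. Nppc, the natriuretic peptide gene known from granulosa cells, was at log2 6.56 ± 0.25 in RNAi-transgenic and 5.68 ± 0.12 in non-transgenic samples (SD, n = 6 and 4), a rise of 0.87 (limma adjusted p = 0.000410). The 2 granulosa markers that rose, among 8 tested, were Fshr and Cyp11a1. Fshr was at 6.75 in RNAi-transgenic and 5.51 in non-transgenic samples and Cyp11a1 at 7.07 and 5.50, with limma adjusted p = 0.00481 and 0.0232. Of the 6 not called, Inha (5.94 and 5.35), Gja1 (8.56 and 8.02) and Kitl (6.78 and 6.72) had the higher mean in RNAi-transgenic samples, and Gata4 (7.61 and 7.98), Wt1 (5.18 and 5.31) and Nr5a2 (9.87 and 9.94) the lower. Npr2, the receptor of this peptide in cumulus cells, was at 2.11 and 2.14. Gucy2c, a guanylyl cyclase, rose by 0.35 (limma adjusted p = 0.0352) and lost its call after quantile normalization (0.0572) and without any 1 of RNAi-transgenic replicates 6, 12 and 13 and non-transgenic replicates 2 and 8. Gmps, which makes GMP and was the brightest, was at -0.26 (adjusted p = 0.0851).

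Of 14 tested genes of the maturation switch that PKA holds back, 3 rose and 1 fell (median -0.09). That is 28.6% called, beside 37.2% of all tested genes. Cdc25b, the phosphatase that turns CDK1 on and that PKA restrains, was at log2 9.21 ± 0.17 in RNAi-transgenic and 8.65 ± 0.23 in non-transgenic samples (SD, n = 6 and 4), a rise of 0.56 without overlap (limma adjusted p = 0.00465). Wee2, the oocyte kinase that holds CDK1 off, was at -0.08 and Cdk1 at -0.13, and neither passed (limma adjusted p = 0.171 and 0.150). Cdc14b, a phosphatase known to delay meiotic resumption in mouse oocytes, was at log2 6.93 ± 0.53 in RNAi-transgenic samples while a single non-transgenic sample of the 4 exceeded log2 5, at least 3.43-fold higher in RNAi-transgenic samples. It passed the filter only through that group, so a difference was built in and its p-value is not given, and it is 1 of the 3 counted as higher. Ccnb3 rose by 0.46 (limma adjusted p = 0.0240), lost without non-transgenic replicate 1 or 8. Fbxo5, which encodes the inhibitor EMI1 of the anaphase-promoting complex, fell by 0.50 (adjusted p = 0.0286), lost without RNAi-transgenic replicate 4, 5 or 13 or non-transgenic replicate 1 or 8. Mos, the brightest, was at 0.16 (adjusted p = 0.0855).

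Genes whose values ran most like those of Gpr3, Gpr12 and Pde3a over the 10 samples were sought among all tested genes, as a description. For Gpr3 the closest were Gm20362, Ablim1 and Pttg1 (Pearson r = 0.965, 0.959 and 0.957), and in deviations from the group means Diaph1, Ablim1 and Nup50 (0.983, 0.971 and 0.970), a likeness in which the low value of non-transgenic replicate 1 takes part. For Gpr12 they were Prss12, Azin1 and Emilin2 (0.954, 0.953 and 0.950), and in deviations Wbp2, Akr1c14 and Nlrp9c (0.967, 0.965 and 0.954). For Pde3a they were Rnf138rt1, Gm10638 and Paqr4 (0.958, 0.956 and 0.950), and in deviations Brwd3, Fbxl7 and Paqr4 (0.923, 0.915 and 0.909). The samples share arrays, normalization and, in the undeviated values, the difference between groups, and with 10590 genes some high values of r arise among 10 samples.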

How the data were processed

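The authors deposited 1 intensity per probe set and array on a linear scale, made with GCRMA per the submitters' processing notes, which corrects background by probe sequence, normalizes the arrays and summarises probes. Its version and the genome build are not given in the sources used here, and the values carry no detection call. With GCRMA, dim values crowd near a floor, which shrinks their differences. Array medians were 17.5 to 20.1. Of 45101 probe sets, 64 were controls, 34945 had 1 gene in the platform annotation, 932 several and 9160 were not listed. Of those with 1 gene, 34741 were matched by gene number to RefSeq (GRCm38.p6) for names.

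Intensities were put on the log2 scale without further normalization. Probe sets above log2 5, an intensity of 32, in at least 4 arrays were kept, and the brightest of a gene over all 10 samples stood for it. Groups were compared in limma 3.58.1 (lmFit, eBayes with a trend) in R 4.3.3, RNAi-transgenic minus non-transgenic, with Benjamini-Hochberg adjustment over 10590 genes and a threshold of 0.05. Dimmer probe sets were tested in a fit of all 16807 that passed with 1 gene. Two-sided exact permutation tests covered the 210 splits into 6 and 4 samples, with a smallest p of 0.00476. "At least" folds set values below log2 5 to 5. In simulated data with 10590 genes, 67, 67 and 66 were changed by 1.5, 2 and 4-fold, and the fit called 52.2%, 88.1% and 98.5% of them. So few changed genes make the adjustment stricter than in these data, where 37.2% were called. The shares found are thus not those of this comparison. The number of arrays limits the precision.

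The genes and lists were chosen with earlier results of these data known. Text names all members, Bnc1 and Bnc2, the brightest gene of each list with its called genes, at most 3 a direction by adjusted p, and the 3 genes most like Gpr3, Gpr12 and Pde3a. Gnai2, Gnai3, Adcy2, Pde8a, Pde8b, Prkar2a, Wee2, Cdk1 and the granulosa markers beside Nppc were added after their values were seen. Alternatives were other filters, normalizations, a pseudocount of 16, variance models, number ranges, averaged probe sets and samples left out. The comparison between number ranges and the filter level as a floor were chosen after seeing the data. Figures were drawn with matplotlib 3.10.9.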

Additional observations from a re-analysis of the deposited data

Results flagged for a closer look

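A sample far from the rest of its group was found for 4 values of the members, out of 110 groups examined over members and named pathway genes, of which 11 held such a sample. Chance flags about 1 in 20 groups. Prkar1a in RNAi-transgenic replicate 4 was at log2 8.77, below the other 5 at 9.43 to 9.79. Prkaca in RNAi-transgenic replicate 6 was at 11.07 on its brighter probe set, above the rest of its group, and in non-transgenic replicate 7 at 7.51 on its dimmer one. Prkar2b in RNAi-transgenic replicate 12 was at 8.76 on its dimmest tested probe set.

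Among pathway genes the stray values were Pkib at 4.98 in RNAi-transgenic replicate 13, Akap13 at 10.33 in non-transgenic replicate 1, Crtc3 at 7.40 and Nppc at 7.05 in RNAi-transgenic replicate 6, Ccnb3 at 9.14 in RNAi-transgenic replicate 11, and Crebbp at 11.38 in RNAi-transgenic replicate 12 and at 12.12 in non-transgenic replicate 1.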

How the results depend on the processing

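No paired analysis was possible because the groups share no replicate number. Adcy9, Gnas, Pde3a and Prkacb kept their direction and their call in limma whichever sample was left out, with differences of -0.96 to -0.77, -0.72 to -0.48, 0.47 to 0.72 and -0.76 to -0.52, and under no filter, a filter at log2 7, both rescalings, the pseudocount, eBayes without a trend, array weights, number range as a covariate and averaged probe sets. Calls were lost within a number range by Adcy9 (-0.46) and Gnas (-0.43) in samples 1 to 6 and by Pde3a (0.54) and Prkacb (-0.51) in samples 7 to 13. Adcy9 also lost its call on the dimmest of its tested probe sets (-0.62), and Gnas, at an adjusted p of 0.0119, with a threshold of 0.01. Gpr12 was no longer called with array weights (0.36), no filter (0.38), quantile normalization (0.34), samples 1 to 6 (0.39) and 7 to 13 (0.37), and ranged from 0.30 to 0.45 with samples left out. Its filter at log2 7 gave no value, nor did that of Adcy3. Genes that did not pass changed sign: Gpr3 in samples 7 to 13 (-0.083), Prkar1a with array weights (-0.0065), averaged probe sets (-0.080), samples 1 to 6 (-0.081) and its second probe set (-0.18), Prkar2b in samples 1 to 6 (-0.11), and Prkaca with median centring (0.024) and in samples 1 to 6 (0.076). With samples left out they ranged from -0.063 to 0.16 (Gpr3), -0.050 to 0.15 (Prkar1a), -0.0057 to 0.25 (Prkar2b) and -0.064 to 0.015 (Prkaca). The cause was not tested. Called genes numbered 3940, and 1913 in samples 1 to 6, 2264 in samples 7 to 13 and 2501 at an adjusted p below 0.01. Called members numbered 5, and 2, 2 and 3 there, and called pathway genes 37, and 14 and 19 in the 2 ranges. Fewer samples or a stricter threshold shape these counts. Dim probe sets, such as that of Gpr12, lie near the floor of GCRMA, where differences are compressed.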

Other observations

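Of the 31 probe sets of these genes 15 were below the filter and were not tested in limma. The second probe set of Gpr12 was at log2 3.98 to 5.55 in RNAi-transgenic and 3.85 to 4.20 in non-transgenic samples, with RNAi-transgenic replicate 12 the only sample above log2 5. The 2 dimmer probe sets of Pde3a did not show the rise of the brightest, with differences of -0.014 and -0.28 (exact permutation p = 0.938 and 0.0476). They were at 3.97 ± 0.32 and 2.92 ± 0.14 in RNAi-transgenic (SD, n = 6), against 3.99 ± 0.29 and 3.20 ± 0.27 in non-transgenic samples (SD, n = 4). The fourth probe set of Adcy9 was at 4.99 ± 0.15 in RNAi-transgenic and 4.77 ± 0.42 in non-transgenic samples. The other 4 probe sets of Gnas lay between means of 3.03 and 3.54, and the other 2 of Prkacb between 3.08 and 3.44.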
